A study of Mus musculus with 2 samples.

Results

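The nuclear-encoded subunits of the mitochondrial respiratory chain and of ATP synthase are described here in RNA of kidney regulatory T cells (Tregs). Members were all genes with a symbol beginning Ndufa, Ndufb, Ndufc, Ndufs or Ndufv plus a digit, Sdha to Sdhd, Uqcr, Cyc1, Cox4 to Cox8, or Atp5, named through the RefSeq accession of each probe. This gave 84 of 22911 named genes, of which 37 belonged to complex I, 4 to complex II, 9 to complex III, 17 to complex IV and 17 to complex V. A further 22 entries of the reference table had a fitting symbol but no probe matched here, 18 of them pseudogenes, and are not analysed here. They include the general subunit genes Cox5b and Ndufb1.

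The cells were CD45+CD3e+CD4+ T cells that carried the FoxP3-hCD2 reporter, sorted from mouse kidney 28 days after cGN had been induced by an anti-GBM antibody, which binds the basement membrane of the glomerulus. Of 2 single-colour arrays, array 1 is recorded under antibody lot I and array 2 under lot M, and both groups share tissue, cell sort, disease model and day. Both arrays lie on 1 slide, and the labels give no batch of sorting, extraction or labelling. The labels say that the severity of disease varied with the lot and do not give strain, age, sex or the number of mice in an RNA sample. With 1 array per lot there is no replicate, so no test and no p-value is given. Each difference compares these 2 arrays, and less RNA per cell cannot be told apart from fewer cells of a type.

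In the deposited value table the lots are exchanged relative to the scanner output, array 1 appearing as lot M and array 2 as lot I. The logarithm of signal over table value had an SD of 0.00011 when each array was set against the other lot's column, and of 0.108 and 0.125 against its own lot's column. The arrays are therefore named by number. A difference is array 2 minus array 1 throughout, and which lot is the higher one is not settled.

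A level is the log2 processed signal minus the array's own 75th percentile over non-control probes, so 0 is the brightness of that percentile. Levels of different genes come from different probes and are not set against each other. The genes of the sort were detected on both arrays: all 9 listed T cell genes and all 5 Treg genes were well above background, with median differences of -0.015 and 0.018. Foxp3 had levels of 4.92 and 4.74. Genes of other kidney cells were present too and differed more. All 8 proximal tubule genes were measured on both arrays and 7 were higher on array 2, with a median difference of 1.19 and a summed level of 3.90 on array 1 and 5.0 on array 2. Distal nephron genes had a median of 0.58 over all 6 members, with summed levels of 6.48 and 6.91. These sums come mostly from Umod, with levels of 6.37 and 6.79 (difference 0.42). Macrophage genes had a median of 0.34 over all 7, with summed levels of 3.87 and 4.22. Endothelial genes had a median of -0.10 over 4, and none of the 4 podocyte genes reached the background limit on an array. The proximal tubule is rich in mitochondria, and the part of its RNA in the values below was not tested.

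In the inner mitochondrial membrane, complex I takes electrons from NADH and complex II takes them from succinate. Both pass them through ubiquinone to complex III, and cytochrome c carries them on to complex IV, which reduces oxygen. Complexes I, III and IV pump protons, and complex V uses the proton gradient to make ATP. The mitochondrial genome encodes a small set of core subunits, while nuclear genes, most of them treated here, supply the others. Tregs are known to depend more on oxidative metabolism than effector T cells do.

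Nuclear respiratory chain genes are a textbook case of coordinate control by the transcription factors NRF1, GABPA, YY1 and ERRA, so the letters of their promoters were read beside the array values. RefSeq promoter windows (250 bases before to 50 after the start, GRCm38.p6) were at hand for 67 members, with 72 windows. The letters searched, on both strands, were CGCATGCG for NRF1, CCGGAAG for GABPA, AAGATGGC for YY1 and AAGGTCA for ERRA. The windows below show general subunits that hold the NRF1 letters with others of the set, and the partners Cox7a1 and Cox7a2, whose differences between the arrays were 0.61 and 0.11. Capitals mark the letters searched, and every line reads 5′ to 3′ on the strand of the gene.
Cox6a1 (chr5:115348909-115349208, strand -): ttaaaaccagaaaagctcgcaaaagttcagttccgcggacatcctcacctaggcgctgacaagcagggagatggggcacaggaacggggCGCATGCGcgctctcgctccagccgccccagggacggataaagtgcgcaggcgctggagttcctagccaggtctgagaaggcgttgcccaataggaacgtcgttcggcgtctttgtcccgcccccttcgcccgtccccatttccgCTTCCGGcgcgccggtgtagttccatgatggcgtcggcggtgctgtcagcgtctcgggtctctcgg
Uqcr11 (chr10:80406772-80407071, strand -): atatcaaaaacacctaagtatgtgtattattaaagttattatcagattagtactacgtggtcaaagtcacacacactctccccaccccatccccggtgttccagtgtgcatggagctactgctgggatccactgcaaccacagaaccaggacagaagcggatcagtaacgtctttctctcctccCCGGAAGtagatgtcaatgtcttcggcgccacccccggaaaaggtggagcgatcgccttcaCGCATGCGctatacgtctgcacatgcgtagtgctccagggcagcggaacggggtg
Atp5k (chr5:108434350-108434649, strand -): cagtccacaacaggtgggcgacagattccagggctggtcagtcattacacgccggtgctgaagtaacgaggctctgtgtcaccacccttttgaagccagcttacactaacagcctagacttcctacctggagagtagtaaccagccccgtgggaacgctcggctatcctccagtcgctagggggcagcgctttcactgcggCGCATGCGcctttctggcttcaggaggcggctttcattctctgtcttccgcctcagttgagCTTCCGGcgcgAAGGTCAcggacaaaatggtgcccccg
Atp5j (chr16:84834927-84835226, strand -): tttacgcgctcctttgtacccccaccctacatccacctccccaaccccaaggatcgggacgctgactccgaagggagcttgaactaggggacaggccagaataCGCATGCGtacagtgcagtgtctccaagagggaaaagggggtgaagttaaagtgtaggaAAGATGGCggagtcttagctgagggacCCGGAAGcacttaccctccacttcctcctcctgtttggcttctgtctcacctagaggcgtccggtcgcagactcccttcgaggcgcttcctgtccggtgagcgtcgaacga
Atp5l (chr9:44920693-44920992, strand -): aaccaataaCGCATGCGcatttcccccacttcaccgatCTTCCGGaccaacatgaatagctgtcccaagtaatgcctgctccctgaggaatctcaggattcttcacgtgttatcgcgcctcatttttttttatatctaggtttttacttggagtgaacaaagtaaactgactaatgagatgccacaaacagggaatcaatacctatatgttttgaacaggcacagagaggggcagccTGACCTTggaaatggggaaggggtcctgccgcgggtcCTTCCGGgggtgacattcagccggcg
Cox7a2 (chr9:79759804-79760103, strand -): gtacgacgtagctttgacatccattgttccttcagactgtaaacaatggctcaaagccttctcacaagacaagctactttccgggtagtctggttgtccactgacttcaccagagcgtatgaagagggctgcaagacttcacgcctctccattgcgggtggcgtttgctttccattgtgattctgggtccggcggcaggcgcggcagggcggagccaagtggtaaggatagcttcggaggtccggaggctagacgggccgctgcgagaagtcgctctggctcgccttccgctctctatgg
Cox7a1 (chr7:30183921-30184220, strand +): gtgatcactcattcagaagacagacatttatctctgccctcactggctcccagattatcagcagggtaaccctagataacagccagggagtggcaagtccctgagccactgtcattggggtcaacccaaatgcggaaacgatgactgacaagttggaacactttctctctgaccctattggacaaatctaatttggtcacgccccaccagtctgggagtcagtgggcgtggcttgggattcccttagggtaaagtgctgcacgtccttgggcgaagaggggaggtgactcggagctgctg

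Atp5k, Atp5l and this window of Atp5j each held the letters of 3 of the 4 factors, the only members that did, and the windows of Cox7a1 and Cox7a2 held none. The general subunits shown differed between the arrays by amounts from 0.0082 (Atp5l) and 0.035 (Atp5j) to 0.10 (Cox6a1), 0.11 (Atp5k) and 0.17 (Uqcr11). Over all members, the NRF1 letters stood in 9 of 72 windows (12.5%), against 1.87% of all 32851 windows in the table. The GABPA letters stood in 17 member windows (23.6%, against 8.86%), the YY1 letters in 10 (13.9%, against 2.75%) and the ERRA letters in 8 (11.1%, against 4.72%). CpG pairs were common in member windows: 68 of 72 (94.4%) held at least 10, against 43.5% of all windows. Among all windows with at least 10 CpG pairs, the shares were 4.07% for NRF1, 17.3% for GABPA, 4.33% for YY1 and 2.45% for ERRA. Of the 67 genes, 33 held none of the 4 sets of letters. The 4 tissue isoforms with a window (Cox6b2, Cox7a1, Cox7b2 and Cox8b) held none of them and had a median of 8.5 CpG pairs per window, against 19 for the general subunits. For windows that held none or 3 of the sets, no share over all windows was counted. The counts of such members and isoforms therefore have no background beside them. A match is a description of letters and not a binding site.

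Nearly all members were detected in the sorted cells. Well above background on both arrays were 80 of 84 members, where 60% of named genes met this. The 76 general subunits, meaning all but 8 isoforms known from particular tissues or conditions, were all measured on both arrays. All 76 also had levels above the 75th percentile on both arrays, as did 55.6% of all genes measured on both. For Cox7c this holds for the mean of its 2 probes, 1 of which lay at -1.88 and -1.99. The 4 members that fell short were Ndufa4l2, Cox7b2, Cox8b and Cox8c. The detection floor, the lowest level of a probe well above background, lay at -4.62 on array 1 and -4.58 on array 2.

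The general subunits had almost the same level on both arrays. Their median difference was 0.065 (all 80 measured members: 0.066, or 1.05-fold), with a range from -0.035 to 0.17. None differed by 1.2-fold, whereas 19.4% of all measured genes did (13.1% as higher on array 2 and 6.31% as lower). Among the 4931 genes with levels at or above the lowest general subunit (1.44), 4.16% differed by 1.2-fold and 0.75% by 1.5-fold. That limit is the level of Cox7c on array 2, a mean of probes at -1.99 and 4.88, and so a weak reference. The differences of the 76 general subunits had an SD of 0.047, against 0.13 over those 4931 genes, and an interquartile range of 0.067 against 0.13. With the measured tissue isoforms, all 80 members had an SD of 0.089. The 4931 genes were dimmer, with a median level on array 1 of 3.07 against 5.62 for the general subunits. The 2508 genes with levels above 3 on both arrays had a median level of 4.29 and an SD of 0.12, and 80 of them differed by 1.2-fold. The scanner's error model gives a difference from 1 spot per array an error of 0.20, which no general subunit exceeded. Probes above the 75th percentile that were printed in repeat spots gave a smaller spread, with an SD of 0.048 for a difference of single spots (272 probes), which leaves out labelling and hybridisation. For Atp5g2, the only member printed in repeat, the spots within a single array already had SDs of 0.065 and 0.071. The spread of 0.048 may therefore be too small for some members, and passing double of it does not place a gene beyond spot noise. Over double that spread, 19 of 76 general subunits were higher on array 2 and 0 were lower. The same limit counted 18.4% of the 4931 genes as higher and 14.2% as lower. The count of 19 fell to 12 with scaling by the gene median, 9 with lowess centring, 8 with quantile normalisation, 7 with no scaling and 1 (Uqcr11) with scaling by spike-ins. With spike-ins the shares of the 4931 genes were 8.86% and 29.4%, and under these 5 settings no general subunit was lower past the limit. The count of 19 was 20 with normexp and 22 with the brightest probe of each gene.

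Of the 80 measured members, 67 were higher on array 2 by any amount, against 53.8% of all genes measured on both arrays, 55.4% of the 4931 genes and 60.6% of genes with levels above 3 on both. This split depended on the scaling. It was 64 with the arrays set equal at the median of measured genes, 59 with quantile normalisation, 57 with no scaling and 45 with scaling by spike-in controls. The background share was then 50%, 50.9%, 45.2% and 37.9%. The 8 spike-ins measured on both arrays differed by a median of 0.057 (0.0094 to 0.080). Relative to the spike-ins the members' median was 0.0088, and relative to the median of all measured genes it was 0.052.

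**Figure D1:**
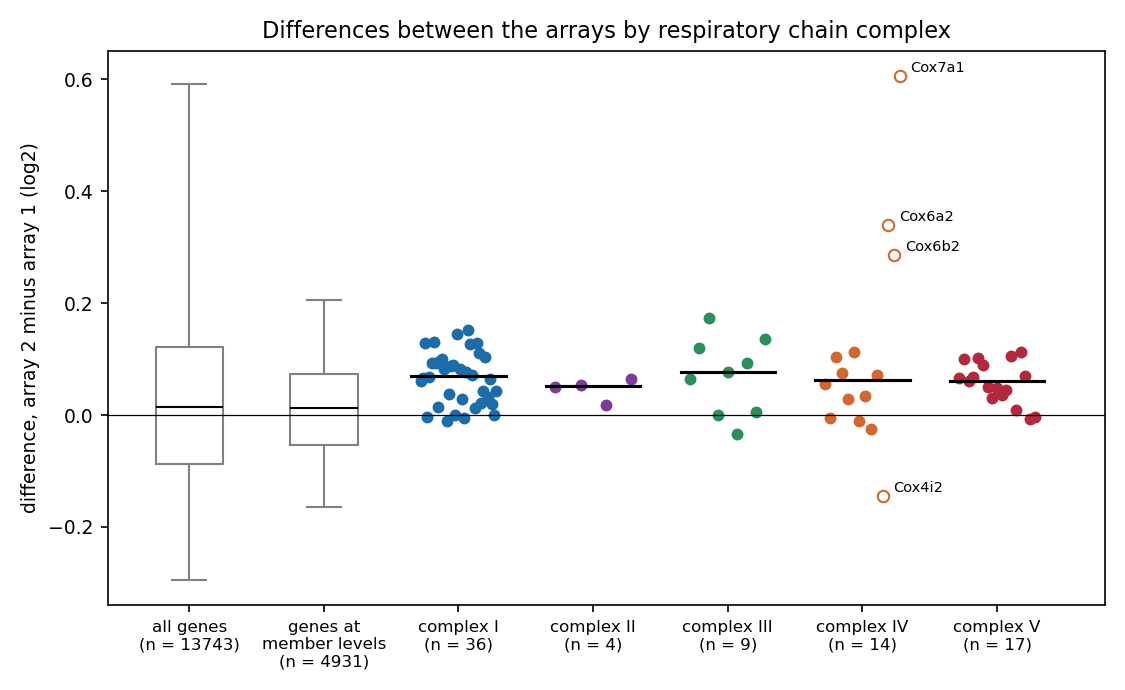
Difference between the arrays (array 2 minus array 1, log2) of each measured member by complex, with black bars at the median and open points for tissue isoforms. Grey boxes give the quartiles and the 5th to 95th percentiles of all 13743 measured genes and of the 4931 genes at or above the lowest level of a general subunit. The filled points lie between -0.035 and 0.17, and only tissue isoforms of complex IV lie outside that band.

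The complexes are given without a rank, since 1 array per lot allows no test between them. The medians were 0.070 for complex I (36 measured members), 0.052 for complex II (4), 0.077 for complex III (9), 0.063 for complex IV (14) and 0.062 for complex V (17). Single genes had an SD of 0.047 within complex I, 0.020 within II, 0.069 within III, 0.19 within IV and 0.037 within V. Members higher on array 2 numbered 31 of 36, 4 of 4, 7 of 9, 10 of 14 and 15 of 17, in that order. Without its tissue isoforms complex IV had a median of 0.044 and an SD of 0.048 over 10 genes.

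Complex I has 7 nuclear-encoded core subunits, which carry the flavin and the iron-sulphur clusters or form the site that hands electrons to ubiquinone. Their median difference was 0.032, and 6 of 7 were above 0. Ndufv1, which binds NADH and the flavin, had levels of 4.06 on array 1 and 4.08 on array 2 (difference 0.021 ± 0.14, the spot error). Ndufv2 stood at 4.97 on both arrays (-0.00051). Ndufs1, the largest iron-sulphur subunit, had levels of 4.48 and 4.49. These 3 genes of the NADH-oxidising tip therefore lay within 0.021 of equality. Ndufs3 had levels of 5.33 and 5.44, Ndufs7 of 5.60 and 5.63, and Ndufs8 of 5.67 and 5.74. All 7 gaps were smaller than the spot error.

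Accessory subunits of complex I surround this core and are needed for its assembly and stability. The 12 measured Ndufb and Ndufc genes, most of which sit in the membrane arm, had a median difference of 0.080, and the 13 measured Ndufa genes 0.082. The remaining accessory genes Ndufs4, Ndufs5, Ndufs6 and Ndufv3 had a median of 0.043. The highest differences of the complex were those of Ndufb9, with levels of 5.82 and 5.98 (0.15), and Ndufb4, with 5.22 and 5.36 (0.14). The lowest were Ndufa9 at 4.25 and 4.24 (-0.010) and Ndufb7 at 6.46 and 6.45 (-0.0060). Ndufs4, whose loss in mice causes a Leigh-like disease, had levels of 4.46 and 4.48. Ndufa13, also called GRIM-19, had levels of 7.99 and 8.06. Ndufa11, which joins the membrane arm, had levels of 3.18 and 3.31, and Ndufa3 of 6.08 and 6.21 (0.13 each). Ndufc1 had levels of 5.22 and 5.35. The X-linked genes Ndufa1 and Ndufb11 stood at 6.13 and 6.19, and at 6.62 and 6.71. Ndufa12 and Ndufb3 differed by -0.0033 and -0.00054, so they were level on both arrays in the main setting (-0.060 and -0.057 with spike-ins). Ndufs6, a zinc-binding subunit, had levels of 6.53 and 6.64 (0.10). From 1 probe, Ndufa8 had levels of 1.84 and 1.92 (0.082). Whether core and accessory genes differ beyond error could not be tested with these arrays.

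Complex II, the only one encoded wholly in the nucleus, is also the succinate dehydrogenase of the citric acid cycle. Sdha, which carries the flavin, had levels of 3.27 and 3.32, and Sdhb, which carries the iron-sulphur clusters, 5.08 and 5.13. The membrane anchors Sdhc and Sdhd had levels of 3.55 and 3.57, and of 4.12 and 4.19. All 4 differences lay between 0.018 and 0.065.

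In complex III, the redox subunits Cyc1 (cytochrome c1) and Uqcrfs1 (the Rieske iron-sulphur protein) had levels of 4.56 and 4.62, and of 4.17 and 4.26. The core proteins went apart in sign: Uqcrc1 stood at 5.31 and 5.39 (0.077 ± 0.20), and Uqcrc2 at 5.21 and 5.17 (-0.035 ± 0.20), the lowest difference of any general subunit. Both gaps were within the spot error. Small subunits included the highest difference of any general subunit, Uqcr11 with levels of 5.71 and 5.89 (0.17 ± 0.20), followed by Uqcrq with 6.97 and 7.11 (0.14) and Uqcr10 with 5.69 and 5.81 (0.12). Uqcrb and Uqcrh differed by -0.00080 and 0.0059. The promoter window of Uqcr11 shown above holds the NRF1 and GABPA letters.

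The general subunits of complex IV also kept to a narrow band. Cox4i1, the main form of the largest nuclear subunit, had levels of 7.48 and 7.54, and Cox5a of 7.12 and 7.11. Cox7a2 had the highest difference of these 10 genes (6.0 and 6.11, difference 0.11 ± 0.20), followed by Cox6a1 (8.34 and 8.45, 0.10). Cox6b1 (3.74 and 3.82), Cox6c (5.95 and 5.98), Cox7b (5.06 and 5.09) and Cox8a (7.82 and 7.89) lay between 0.029 and 0.075. Cox7c had the lowest (-0.025), but its 2 probes lay 6.71 log2 units apart on array 1, at -1.88 and 4.82, and differed between the arrays by -0.11 and 0.060. Its mean level therefore says little. Cox7a2l, a factor in the assembly of supercomplexes, had levels of 7.39 and 7.37 (-0.011). Ndufa4, listed with complex I by its symbol but now assigned to complex IV, had levels of 4.90 and 4.99.

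Complex V consists of the catalytic F1 head, a rotating ring of c subunits, a peripheral stalk and small membrane subunits. The F1 genes Atp5a1 (5.69 and 5.76), Atp5b (5.12 and 5.22), Atp5c1 (7.16 and 7.22), Atp5d (5.22 and 5.29) and Atp5e (7.56 and 7.66) differed by 0.062 to 0.10, all 5 higher on array 2. Atp5g1, Atp5g2 and Atp5g3 encode precursors of one and the same mature c subunit, and differed by 0.090, 0.049 and 0.031. Of the stalk genes, Atp5o (OSCP) and Atp5pb (subunit b) had the lowest differences in the complex at -0.0072 and -0.0033, whereas Atp5h and Atp5j differed by 0.049 and 0.035. Among the membrane subunits, Atp5md (DAPIT) and Atp5k (subunit e) had the highest at 0.11 each, and Atp5l (subunit g) differed by 0.0082. Every gap was smaller than its spot error.

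Atp5g2 was the only member printed in repeat, with 10 spots per array. On array 1 its spots ran from 7.60 to 7.79 with a median of 7.67, and on array 2 from 7.63 to 7.86 with a median of 7.72. The spots of both arrays overlapped, with an SD of 0.065 and 0.071 within an array against a gap of 0.049 between them. Of the 84 members, 66 had 1 probe. Among the 17 with several measured probes, the probes of a gene differed by at most 0.17 in their difference between arrays. They went apart in sign in 6 genes (Atp5o, Atp5pb, Cox7c, Ndufa5, Ndufa10 and Uqcrb). In Ndufa10 the probes differed by -0.0029 and 0.13, with a mean of 0.066.

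**Figure D2:**
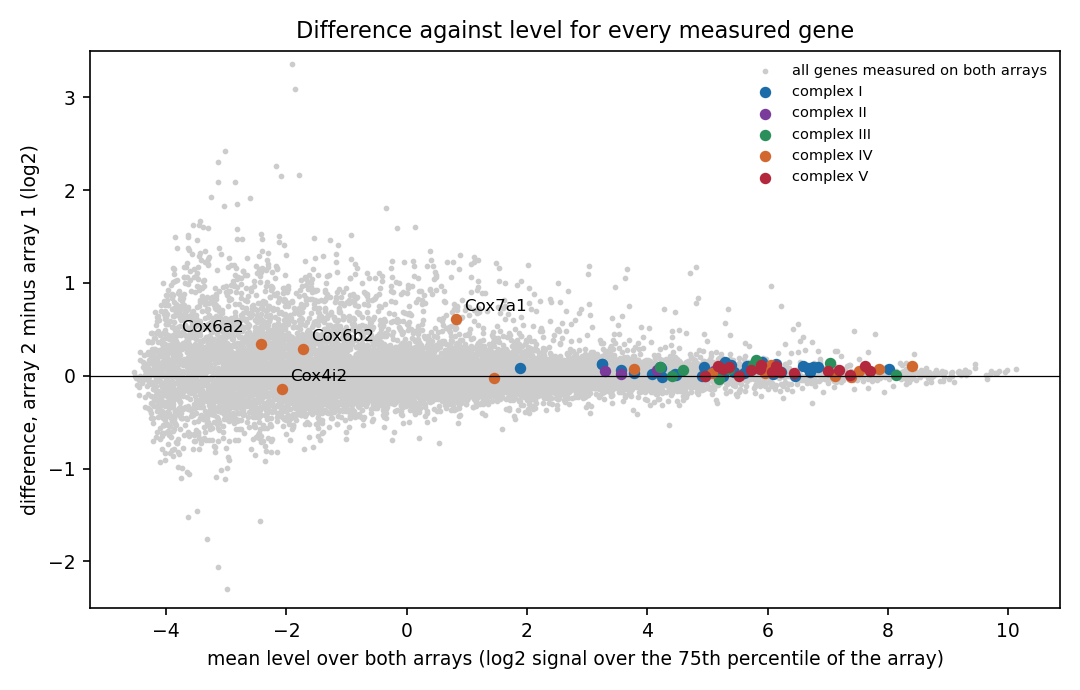
Difference between the arrays against the mean level for all 13743 measured genes (grey) and the members (coloured by complex), both as log2 values. The general subunits form a narrow band to the right just above 0, where the grey cloud is wider, and the 4 measured tissue isoforms lie further to the left.

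Of the isoforms that replace a general subunit in particular tissues or conditions, some were detected in the sorted cells and some were not. Of 8 such genes, 5 were well above background on array 1 and 4 on array 2. The background share of genes above it on neither array was 37.1%, and 3 of the 8 isoforms (Ndufa4l2, Cox7b2 and Cox8b) were in that class. All general partners (Cox4i1, Cox6a1, Cox6b1, Cox7a2, Cox7b, Cox8a and Ndufa4) were well above background on both arrays and differed by 0.034 to 0.11. These isoforms were singled out as a class with earlier results of these data known.

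Cox7a1, the heart and skeletal muscle form of subunit VIIa, had the largest difference of the 80 members measured on both arrays. Its level was 0.52 on array 1 and 1.12 on array 2, a difference of 0.61 ± 0.20 (1.52-fold), while its general partner Cox7a2 differed by 0.11. It was the only one of 80 members to differ by 1.5-fold, a limit passed by 5.97% of all measured genes and, as higher on array 2, by 5.15%. Under normexp background correction, scaling by spike-ins or no scaling, no member did. Which cells gave the Cox7a1 signal was not tested. Of 5 listed muscle genes none was well above background on array 1 and 1 (Myh6) on array 2, with summed levels of -3.89 and -3.44. The mean signal of each muscle gene lay under the floor on both arrays, so these sums add up background-level signal. The highest was Acta1, at -5.37 and -4.89. Ucp1 and Cidea of brown fat, another tissue known for Cox7a1, did not reach the background limit on an array, and their summed levels were -5.76 and -5.75. Vascular mural genes, a list added after the values were seen, were measured in 6 of 8 cases, 4 of them higher on array 2 and 2 lower. They ranged from Cnn1 (-0.35 ± 0.41) and Myh11 (-0.12 ± 0.30) to Tagln (0.34 ± 0.20). Notch3 (0.068 ± 0.21), Acta2 (0.17 ± 0.14) and Rgs5 (0.24 ± 0.26) lay between. Only 2 of the 6, Tagln and Acta2, exceeded their spot error, and both lower genes lay within theirs. The median difference of the 6 was 0.12, with summed levels of 1.36 and 1.54 for the list.

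The muscle form Cox6a2 was dim at -2.60 and -2.26 (0.34 ± 0.23), and the testis form Cox6b2 at -1.87 and -1.58 (0.29 ± 0.21). Together with Cox7a1 they were the 3 of 80 members that differed by 1.2-fold, and the 3 whose difference exceeded the spot error. By that last measure 17.1% of all measured genes were higher on array 2 and 11.4% lower. None of the 80 members measured on both arrays differed by 2-fold, against 1.43% of measured genes. Of the testis genes, Prm2 was well above background on both arrays (-0.57 and -0.53), and Prm1 and Tnp1 on neither. Cox4i2, a form of subunit IV known from lung and linked to responses to low oxygen, went the other way at -2.0 and -2.14 (-0.14 ± 0.22), within its error. These 3 dim isoforms rest on 1 probe each.

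Cox8c, another testis form, was measured on array 1 only, where it had a level of -2.24, against a signal at -6.68 on array 2, below the floor. This makes it at least 5.05-fold higher on array 1, from 1 spot per array and on the bound set by the floor of array 2. Its partner Cox8a differed by 0.072, in the other direction. Ndufa4l2, a hypoxia-induced relative of Ndufa4, had signals of -5.12 and -4.65, both under the floor. The signals of Cox7b2 and Cox8b lay between -6.81 and -6.61. Of the 8 tissue forms, only Cox7a1 was brighter than the 75th percentile on both arrays, as all of their general partners were.

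**Figure D3:**
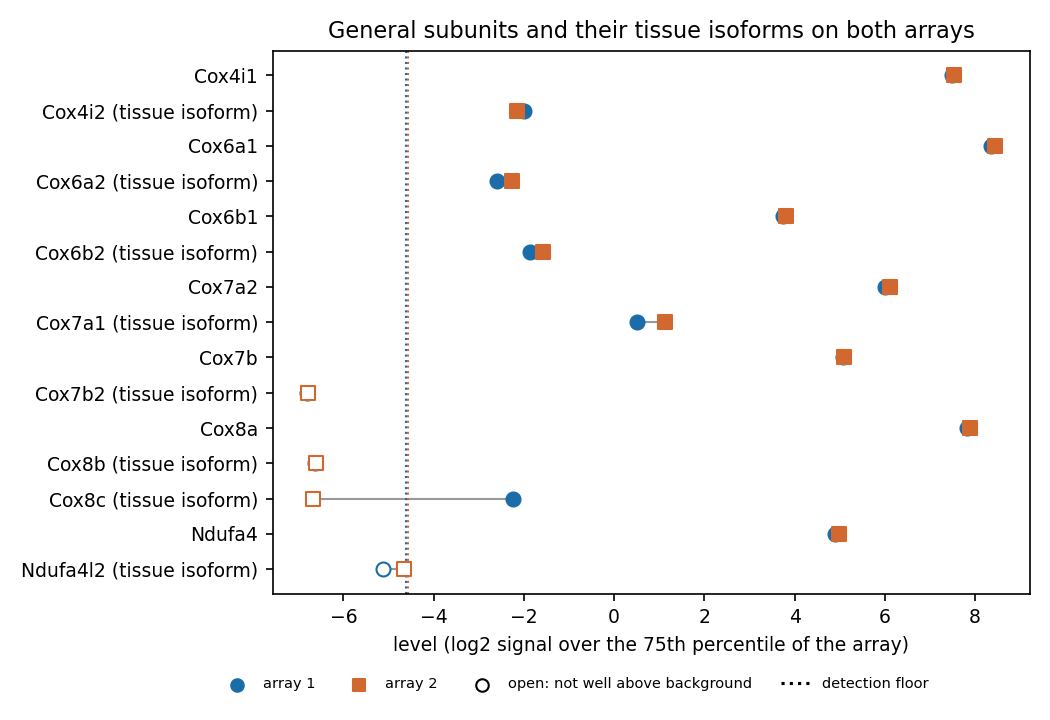
Level on array 1 (circles) and array 2 (squares) of each general subunit with isoforms and of its tissue isoforms, in log2 units relative to the 75th percentile of the array. Open symbols were not well above background and dotted lines are the detection floors (-4.62 and -4.58). For each general form both symbols nearly coincide, while Cox7a1 moves from 0.52 to 1.12 and Cox8c is open on array 2. Rows are different probes, so only the 2 symbols of a row can be compared.

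Genes that build or serve the chain differed by as little in the median and scattered more, but they were dimmer. Median levels on array 1 were 1.46 for assembly factors and 0.81 for biogenesis regulators, against 5.62 for the general subunits. They were 4.68 for carriers and partners and 3.77 for the citric acid cycle. The differences of the assembly factors had an SD of 0.13, as did those of the 4931 genes. The part of brightness in the wider scatter was not tested. Of 47 assembly factors, 46 were measured and 28 were higher on array 2, with a median of 0.030. The share of all measured genes higher on array 2, 53.8%, is close to theirs. The highest were Pet117 (-4.10 and -3.67, 0.44 ± 0.33) and Coa7 (0.29), both factors of complex IV assembly. The lowest were Cox10 (-0.38 and -0.67, -0.29 ± 0.15), which makes the haem of complex IV, and Timmdc1 of complex I assembly (-0.24). None of these genes differed by 1.5-fold, against 5.97% of all measured genes.

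All 17 regulators of mitochondrial biogenesis and mitochondrial gene expression were measured, and their median was 0.032. Twnk, the mitochondrial DNA helicase, had levels of -1.86 and -1.44 (0.42 ± 0.21), and Tefm, a mitochondrial transcription elongation factor, of -1.51 and -1.10 (0.41 ± 0.21). Polg2 (-0.18 ± 0.14) and Mterf1a (-0.13) were the lowest. The factors whose promoter letters were searched differed little: Nrf1 by 0.095, Gabpa by -0.058, Yy1 by -0.11 and Esrra by 0.0036. The coactivator gene Ppargc1a was dim at -2.23 and -2.03 (0.20 ± 0.17), and Tfam stood at 2.42 and 2.39. None of the 17 differed by 1.5-fold.

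Carriers and partners of the chain, such as cytochrome c, the ADP/ATP carriers and the outer membrane channels, had a median of 0.059 over 12 measured genes of 15. Ucp2 (0.14) and Vdac1 (0.13) were the highest, Coq10b (-0.23 ± 0.12) and Vdac2 (-0.041) the lowest. The brown fat uncoupler Ucp1, the testis cytochrome Cyct and the testis carrier Slc25a31 stayed within the background on both arrays. The 18 genes of the citric acid cycle and pyruvate dehydrogenase were all measured, with a median of 0.017. Idh2, the mitochondrial NADP-dependent isocitrate dehydrogenase, had levels of 2.12 and 2.42 (0.30 ± 0.14), followed by Suclg1 (0.12), while Dld (-0.080) and Pdhx (-0.074) were the lowest. Citrate synthase (Cs) stood at 5.17 and 5.18.

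**Figure D4:**
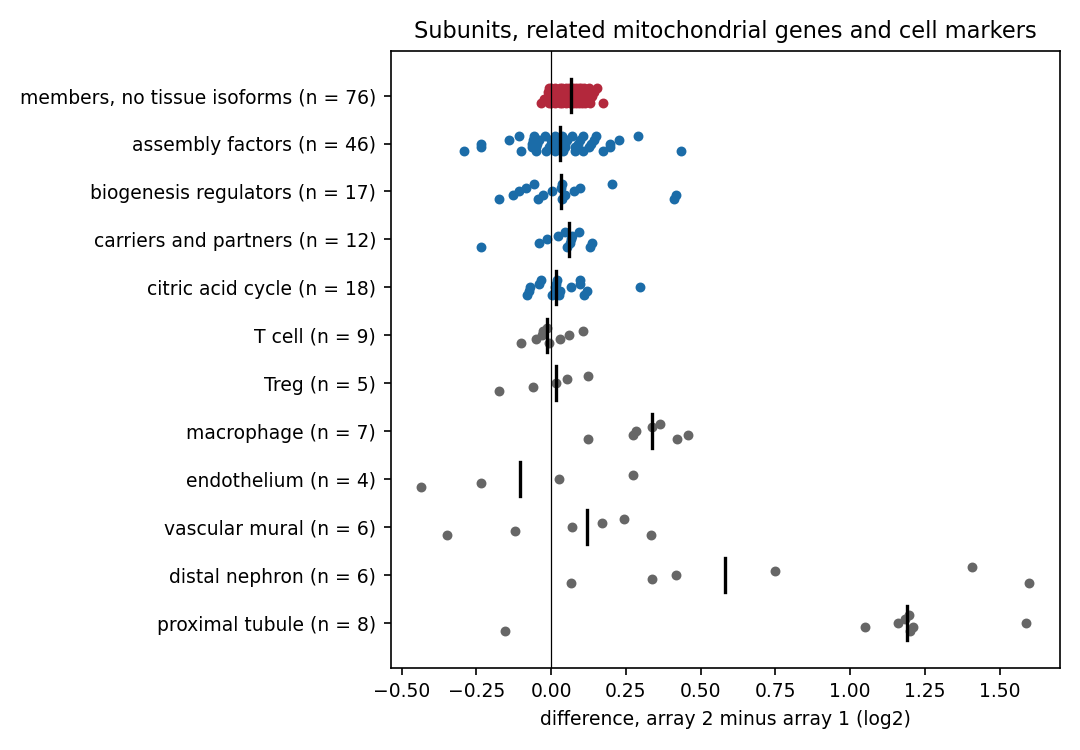
Difference between the arrays (log2) of the general subunits, of 4 lists of related mitochondrial genes and of cell type markers, 1 point per gene with the median as a bar. The 76 subunits lie between -0.035 and 0.17, the mitochondrial lists have medians of 0.017 to 0.059, and most proximal tubule genes lie near the median of 1.19.

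All 5 medians moved together with scaling by the gene median, by spike-ins or not at all, since each shifts every gene equally. The order of the medians was not the same under every method. With scaling by spike-ins they ran from -0.0047 (complex II) to 0.020 (complex III), and with lowess centring from 0.035 (complex IV) to 0.060 (complex III), with complex II between. The value table read by its own labels turned every median below 0, since its columns are exchanged. The SD of the general subunits' differences lay between 0.047 and 0.055 under all 12 alternatives, but several of these could not change it. The scalings that shift every gene equally leave an SD as it is. The value table is the signal over a constant per array, so it could hardly change the SD either. The stricter filter and kept outlier spots left it at 0.047. It was 0.055 with normexp, 0.048 with quantile normalisation and 0.047 with lowess centring. With the brightest probe it was 0.047, and with no filter on dim probes or the other detection flag 0.048.

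**Figure D5:**
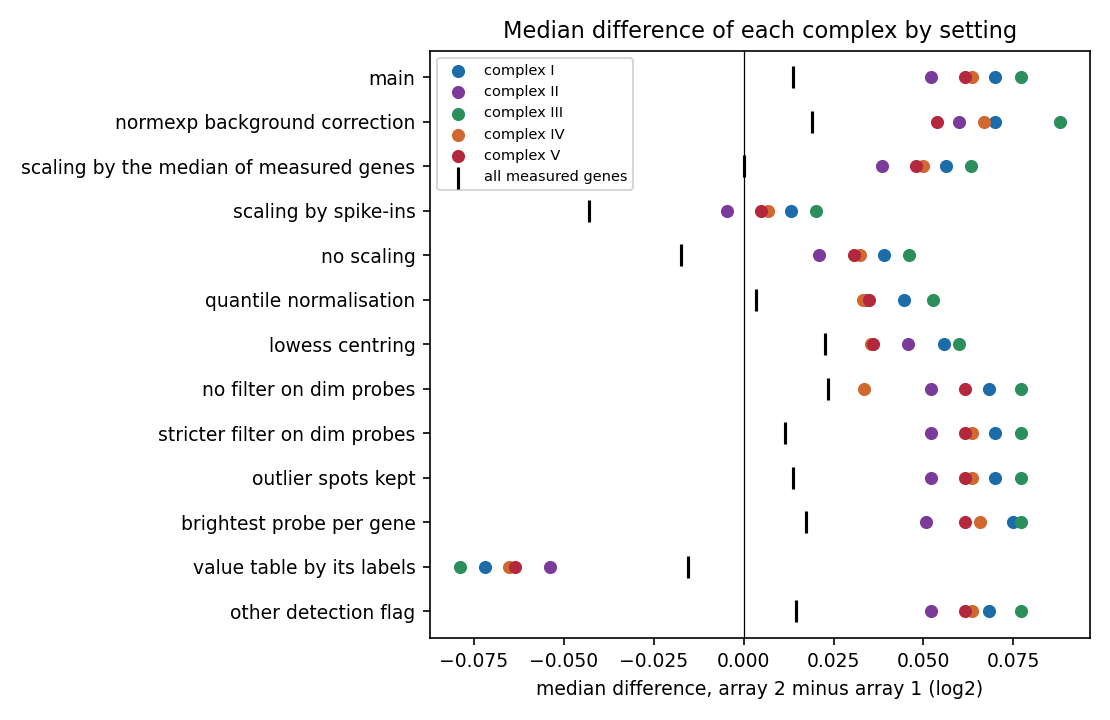
Median difference (log2) of each complex under the main setting and each alternative, with a vertical tick for the median of all measured genes. The medians lie between 0.052 and 0.077 in the main setting and between -0.0047 and 0.020 with spike-ins. Scaling by spike-ins shifts every gene equally, so the 5 complexes move together by construction.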

How the data were processed

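Total RNA was labelled with Cy3 and hybridised to 2 Agilent arrays, and per the submitters' processing notes spots were read with Agilent Feature Extraction 10.7.1.1. The deposited processed signal intensity of a spot was background corrected and detrended within its array, per the file headers, and not normalised between arrays. Other deposited columns, per the file headers, are flags of 0 or 1 for detection, saturation and outliers. The deposited value table holds a linear ratio per probe, whose calculation the labels do not give. Against the scanner output it was the processed signal over 1 constant per array, not log and not centred.

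Control spots (3671 of 62976) and outlier spots were left out, spots of a probe averaged as log2 values, and the array's 75th percentile over probes subtracted. The detection flag was set for 30576 of 56605 probes on array 1 and 30558 on array 2. Probes were named through RefSeq accessions (GRCm38.p6, names and promoters only, since the arrays name mm9). A gene's level is the mean over probes well above background on both arrays, and its error comes from the scanner's error model. The number of arrays limits the precision. Cross-hybridisation with pseudogenes was not tested. Named genes were the central subunits, the isoforms with partners, the 2 highest and 2 lowest differences per complex and list, and members missed on an array. Other members, the transcription factors, Ppargc1a, Tfam and Cs were named beyond this rule after their values were seen. The values of 1 member are not reported here. Members and lists were chosen with earlier results of these data known. Alternatives covered background correction, scaling, filters on dim probes, outliers, probe choice, value source and detection flag. The design named normexp, which was run on median signals with limma 3.58.1. All else used Python 3.11.15, pandas 2.3.3 and statsmodels 0.14.6. The gene summary was tested on simulated data with planted changes.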

Additional observations from a re-analysis of the deposited data

How the results depend on the processing

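With 1 array per lot nothing could be left out. No paired analysis was possible because each lot has 1 array. The median over all members, 0.066 in the main setting, was 0.0088 with scaling by spike-ins and 0.035 with no scaling. With spike-ins the median was 0.013 for complex I and 0.0048 for complex V. The value table read by its labels turned the medians to -0.067 for all members, -0.072 for complex I, -0.079 for complex III, -0.065 for complex IV and -0.063 for complex V. There 10 of 80 members were higher in the column of lot M, and Cox7a1 had -0.61, Cox6a2 -0.35 and Cox6b2 -0.29, because its columns are exchanged. Members 1.5-fold or more apart numbered 1 in the main setting, 0 with normexp, spike-ins or no scaling, and 2 with no filter on dim probes. With other limits, 0 of the 80 members measured on both arrays passed 2-fold and 3 passed 1.2-fold. Only 3 members were higher on array 2 by over 1 spot error, an alternative chosen after seeing the data. So were the counts of general subunits over double the repeat-spot spread, from 1 higher with spike-ins to 22 with the brightest probe. The exchanged columns of the value table gave 0 higher and 19 lower. Detection on both arrays held for 80 of 84 members and for 81 with the other detection flag. The stricter filter leaves the flag as it is and could not change that count, but all 80 members passed it. Keeping outlier spots left the count at 80, and the genes higher on array 2 stayed at 7390 of 13743. Dim genes near the floor are limited by signal over background.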
